A study of Mus musculus with 9 samples.

Results

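The SREBP1 lipogenic genes were described in 9 mouse liver RNA-seq libraries, as the 10 genes Srebf1, Mid1ip1, Thrsp, Fasn, Acaca, Acly, Scd1, Elovl6, Pnpla3 and Me1 among the 54532 genes of the deposited table. They were chosen by gene name, and each name had 1 entry. The livers came from male C57BL/6 mice of 5 to 7 weeks, in groups of 3. The NC group was the normal control. The APAP group had received 500 mg/kg acetaminophen (APAP) intraperitoneally 6 h before, as a model of overdose. The AMSC group had received the same APAP dose and, immediately after it, 200000 adipose-derived mesenchymal stem cells (AMSCs) from C57BL/6 inguinal fat through the tail vein, and was also sampled at 6 h. The methods state that all animals had an overnight fast before APAP, without saying whether this covers the NC mice, which received none, so the feeding state of NC is not known for certain. The title of NC replicate 3 carries another date than those of the other libraries and the number 1 of that date, and the AMSC libraries are numbered 2, 3 and 4.

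SREBP1, encoded by Srebf1, is a transcription factor made as a precursor in the endoplasmic reticulum membrane. It is carried to the Golgi by SCAP, cut there, and its free end enters the nucleus and drives genes of fatty acid synthesis. INSIG proteins hold it in the endoplasmic reticulum. In liver the pathway is known as one that insulin and feeding raise and fasting lowers. Citrate is split to acetyl-CoA by the product of Acly, acetyl-CoA is carboxylated to malonyl-CoA by that of Acaca, and fatty acid synthase, from Fasn, builds palmitate, which Elovl6 lengthens and Scd1 desaturates.

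The promoters of the 5 members called lower in APAP against NC are given here, a choice made from these same values. Sequences are those of RefSeq on GRCm38.p6, from 250 bases before to 50 after a gene's start, 5′ to 3′ on the gene's strand. RefSeq lists 3 starts for Srebf1, which the gene-level values do not separate, and all are given. Capitals mark CCAAT boxes (CCAAT) and GC boxes (GGGCGG) found on either strand.
Srebf1 chr11:60222532-60222831 (- strand): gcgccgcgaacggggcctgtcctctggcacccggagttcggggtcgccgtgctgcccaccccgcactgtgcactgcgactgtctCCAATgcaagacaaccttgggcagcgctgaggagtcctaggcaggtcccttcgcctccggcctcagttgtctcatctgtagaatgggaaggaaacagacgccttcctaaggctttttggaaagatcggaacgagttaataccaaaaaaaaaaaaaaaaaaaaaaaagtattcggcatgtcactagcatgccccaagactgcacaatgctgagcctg
Srebf1 chr11:60220578-60220877 (- strand): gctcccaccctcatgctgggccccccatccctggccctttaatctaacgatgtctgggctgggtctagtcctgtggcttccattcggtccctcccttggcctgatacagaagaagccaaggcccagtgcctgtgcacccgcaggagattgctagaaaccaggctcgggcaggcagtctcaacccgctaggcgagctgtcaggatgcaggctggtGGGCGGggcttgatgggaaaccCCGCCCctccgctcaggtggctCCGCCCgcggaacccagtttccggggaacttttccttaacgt
Srebf1 chr11:60210422-60210721 (- strand): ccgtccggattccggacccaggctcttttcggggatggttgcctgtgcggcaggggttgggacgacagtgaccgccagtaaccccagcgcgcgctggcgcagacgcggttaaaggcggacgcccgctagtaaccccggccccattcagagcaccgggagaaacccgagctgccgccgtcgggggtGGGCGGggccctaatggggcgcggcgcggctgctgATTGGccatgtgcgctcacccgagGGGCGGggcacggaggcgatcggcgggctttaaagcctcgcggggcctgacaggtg
Mid1ip1 chrX:10717115-10717414 (+ strand): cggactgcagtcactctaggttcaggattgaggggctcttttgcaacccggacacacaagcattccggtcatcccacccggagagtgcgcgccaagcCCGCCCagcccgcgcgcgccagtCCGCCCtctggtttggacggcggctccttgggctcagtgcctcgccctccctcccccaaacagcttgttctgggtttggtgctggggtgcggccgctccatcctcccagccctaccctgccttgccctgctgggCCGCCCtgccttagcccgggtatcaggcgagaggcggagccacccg
Thrsp chr7:97417501-97417800 (- strand): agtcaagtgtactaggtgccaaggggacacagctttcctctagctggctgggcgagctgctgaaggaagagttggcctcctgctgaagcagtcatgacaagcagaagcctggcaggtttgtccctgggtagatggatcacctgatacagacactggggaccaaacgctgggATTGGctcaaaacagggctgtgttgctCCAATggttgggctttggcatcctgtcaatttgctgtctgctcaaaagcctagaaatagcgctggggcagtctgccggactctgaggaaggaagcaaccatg
Fasn chr11:120824498-120824797 (- strand): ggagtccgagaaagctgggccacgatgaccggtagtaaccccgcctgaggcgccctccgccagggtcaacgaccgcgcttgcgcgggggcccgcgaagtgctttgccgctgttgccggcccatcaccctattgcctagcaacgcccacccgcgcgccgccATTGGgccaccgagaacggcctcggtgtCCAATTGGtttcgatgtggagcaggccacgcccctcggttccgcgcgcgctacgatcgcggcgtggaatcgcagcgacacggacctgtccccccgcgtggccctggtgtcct
Elovl6 chr3:129532136-129532435 (+ strand): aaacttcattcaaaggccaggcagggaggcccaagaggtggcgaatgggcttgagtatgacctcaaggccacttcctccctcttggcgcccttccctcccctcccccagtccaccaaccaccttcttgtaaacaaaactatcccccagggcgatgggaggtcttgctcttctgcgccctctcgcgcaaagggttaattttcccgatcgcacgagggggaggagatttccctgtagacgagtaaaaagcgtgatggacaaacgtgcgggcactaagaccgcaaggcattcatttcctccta

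The Fasn promoter held 3 CCAAT boxes, 90, 62 and 59 bases before the start, those at 62 and 59 overlapping on opposite strands. The Thrsp promoter held 2, at 79 and 52 bases. A CCAAT box is bound by NF-Y, a factor known to act beside SREBPs. Mid1ip1 held GC boxes, the letters that SP1 binds, 153 and 130 bases before the start and 4 after it. Elovl6 and Acaca held neither box. Members not called in APAP against NC held them too. Acly held 1 CCAAT box and 4 GC boxes, and Me1 held 1 and 4, at different starts. Pnpla3, which was not tested, held 1 and 3. Among all 32851 promoters of this length, 37.4% held CCAAT and 35.7% held GGGCGG on either strand. The sterol element TCACNCCAC (1.24% of all promoters) and the E-box CACGTG (7.15%) were found in none of the 12 promoters listed for 9 members, which says only that these letters were not in these windows. Scd1 had no entry. The start used for Acaca (window chr11:84195188-84195487) lies inside the gene, whose annotated span begins at 84129672. That used for Mid1ip1 (window chrX:10717115-10717414) also lies inside its gene, which begins at 10715013. Other starts of Acaca and Mid1ip1 were not examined.

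The libraries held 13418921 to 16210930 reads on genes, and values are given as FPKM, fragments per kilobase of gene after scaling for library size by the authors. Summed FPKM of 5 hepatocyte marker genes was 38987 to 42748 in NC, 55641 to 65993 in APAP and 48706 to 51802 in AMSC. Most of this sum was Alb (mean 28741, 44835 and 33180 FPKM in the same order), while Ttr (3558, 4019 and 3571) changed less. Since adipocytes also make fat, 8 adipocyte markers were examined. Adipoq, Lep, Plin1, Retn and Adig had at most 3 reads in any library, and the summed level of the 8 genes was 1.90 to 3.69 FPKM in NC, 12.6 to 40.4 in APAP and 12.8 to 27.0 in AMSC. That difference was nearly all Cidec, a lipid droplet gene (mean 1.42, 20.1 and 16.2 FPKM), while Fabp4 was at 1.18, 2.18 and 2.54 FPKM and Cfd at 0.315, 0 and 0.048. In the same order of groups, the summed FPKM was 18.5 to 35.8, 27.5 to 56.6 and 25.8 to 44.9 for 8 stromal genes, 37.5 to 71.9, 54.0 to 131.8 and 28.9 to 48.2 for 6 macrophage genes, and 0.173 to 1.56, 7.04 to 33.2 and 4.27 to 5.72 for 7 neutrophil genes. It was 17.0 to 36.3, 21.5 to 54.3 and 18.3 to 19.9 for 6 endothelial genes, 134.5 to 254 (NC), 305.9 to 1406 (APAP) and 183 to 312 (AMSC) for 5 erythroid genes, and 18.7 to 39.6, 57.4 to 97.3 and 27.3 to 50.5 for 5 biliary genes. The biliary sum was carried by Spp1 (mean 22.3, 49.7 and 30.0 FPKM) and Sox9 (1.46, 26.7 and 3.06), while Krt19 (0.923, 1.64 and 0.674) and Krt7 (0.149, 0.161 and 0.0885) were low in all groups. Their part in the results was not tested, and in bulk tissue fewer cells of a type and less RNA per cell cannot be told apart.

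In APAP against NC, Srebf1 and 4 of its lipogenic partners were lower. Mid1ip1 fell to 10.2% of the NC mean, Elovl6 to 21.9%, Thrsp to 23.2%, Srebf1 to 30.1% and Fasn to 36.3%. Acly, Scd1 and Me1 lay at 96.8%, 111% and 97.4% of the NC mean. A gene was called at an adjusted p of at most 0.05 in limma on log2(FPKM + 1) and an absolute log2 fold change of at least 1. Of the 10 members, 9 had the mean of at least 1 FPKM required for testing, and 5 of them were called, all lower, against 2.8% of 9699 genes tested called lower and 5.09% called higher. Every APAP library lay below every NC library for 6 of the 9, against 22.3% of all genes tested. The median log2 fold change of the 9 members was -1.39, and that of all genes tested was -0.00.

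In AMSC against NC, 5 of the 9 tested members were again lower. Mid1ip1 was at 6.01% of the NC mean, Elovl6 at 12.6%, Srebf1 at 21.3%, Fasn at 21.5% and Acly at 44.0%. Over all genes tested, 2.09% were called lower and 3.92% higher. Every AMSC library lay below every NC library for 6 members, against 20.3% of all genes, and the median of the 9 members was -1.11 beside 0.02 for all genes. This comparison shares the NC libraries with APAP against NC.

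Between AMSC and APAP, Acly was the only member called. It fell to 45.5% of the APAP mean, where 1.22% of all genes were called lower and 0.742% higher. All AMSC libraries lay below all APAP libraries for 4 members (Acly, Fasn, Elovl6 and Mid1ip1), against 12.4% of all genes tested. The median of the 9 members was -0.55 beside 0.01 for all genes.

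**Figure D1:**
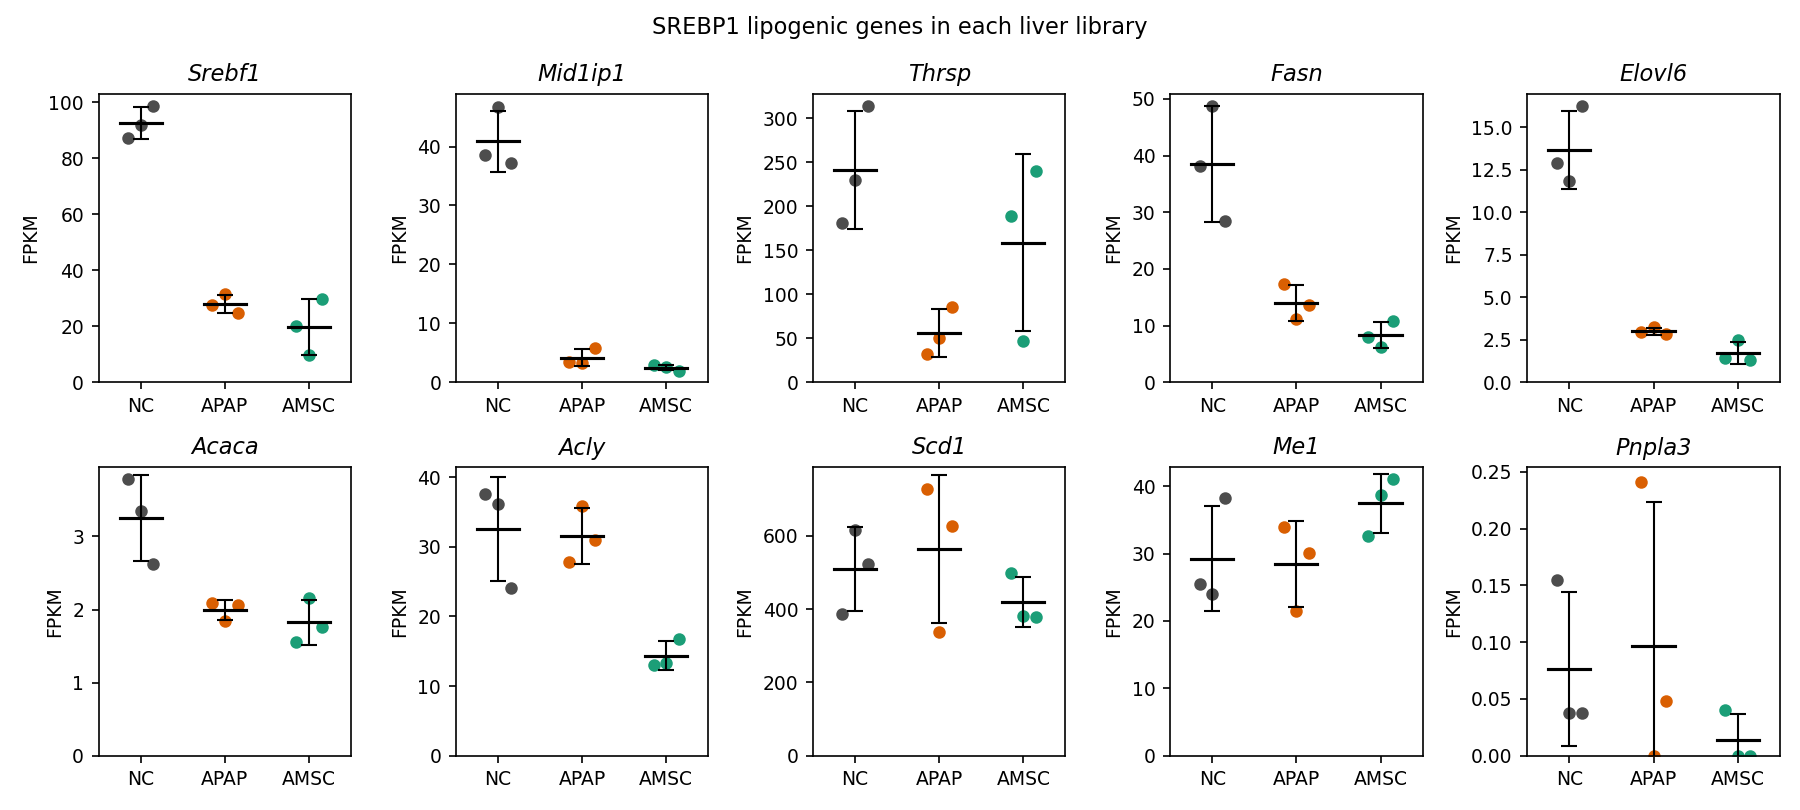
FPKM of the 10 SREBP1 lipogenic genes in each library (points, 3 per group in the order of the replicate numbers), with the group mean (bar) and SD (error bar) and a linear axis from 0 for each gene. Srebf1, Mid1ip1, Fasn and Elovl6 lay below all NC libraries in all APAP and AMSC libraries, whereas Acly was low in the AMSC group and Thrsp spanned 46.6 to 240.4 FPKM there.

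**Figure D2:**
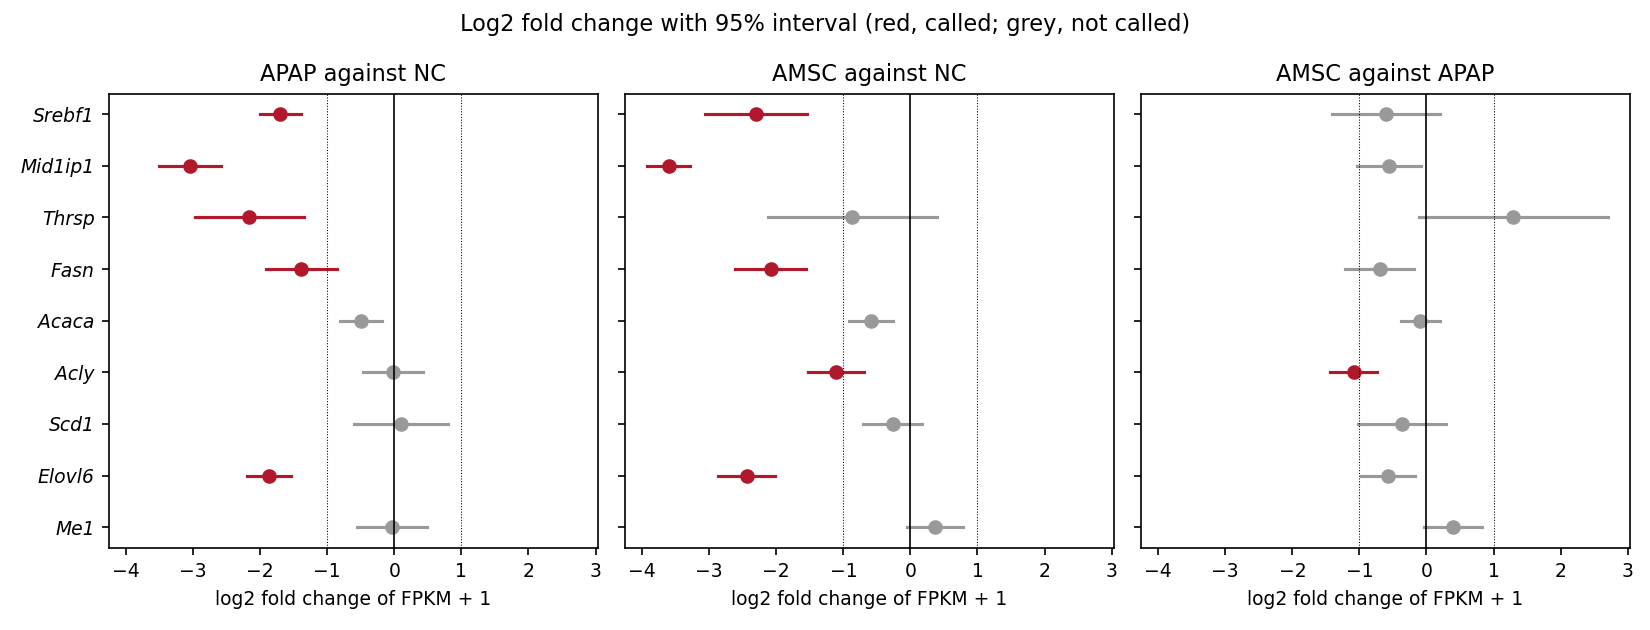
Log2 fold change of FPKM + 1 (points) with its 95% interval (lines) for the 9 members tested, in the 3 comparisons. Dotted lines mark the minimum fold change of 1 in either direction, and 5, 5 and 1 members were called (red) in APAP against NC, AMSC against NC and AMSC against APAP.

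The factor itself, Srebf1 (ENSMUSG00000020538, chr11:60199089-60222581, minus strand, GRCm38), was at 87.3, 91.8 and 98.6 FPKM in NC replicates 1, 2 and 3. It was at 27.4, 31.5 and 24.8 FPKM in APAP replicates 1, 2 and 3, and at 19.9, 9.56 and 29.7 FPKM in AMSC replicates 2, 3 and 4. The 3 NC libraries were close to each other and far above the other 6, while AMSC replicate 3 was lowest and the AMSC libraries reached into the APAP range. The group means were 92.6 ± 5.69, 27.9 ± 3.33 and 19.7 ± 10.05 FPKM (SD, n = 3 each). The log2 fold change was -1.70 (SE 0.13, adjusted p = 0.000195) in APAP against NC and -2.30 (SE 0.33, adjusted p = 0.00202) in AMSC against NC. Between AMSC and APAP it was -0.60 (95% interval -1.41 to 0.20, adjusted p = 0.376), which the spread of the AMSC libraries covered. Srebf1 overlaps Rai1 on the other strand, which was at 1.13 to 2.23 FPKM, and the table sums all Srebf1 transcripts.

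Mid1ip1 and Thrsp are paralogs that encode small acidic proteins, and MIG12, from Mid1ip1, is known to bind acetyl-CoA carboxylase and favour its polymers. Mid1ip1 (ENSMUSG00000008035, chrX:10715013-10719690, plus strand) was at 38.6, 46.8 and 37.3 FPKM in the NC libraries, 3.40, 3.26 and 5.80 in the APAP libraries and 2.90, 2.49 and 1.97 in the AMSC libraries. The 3 groups did not overlap, and the gap between NC and the rest exceeded the spread within every group. Its log2 fold change in APAP against NC was -3.05 (SE 0.20, adjusted p = 0.000118) and in AMSC against NC it was -3.60 (SE 0.14, adjusted p = 2.47e-06), in both the largest decrease among the 9 members tested. AMSC against APAP gave -0.55 (95% interval -1.03 to -0.08, adjusted p = 0.183), which was not called although the libraries did not overlap.

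Thrsp (Spot 14, a thyroid hormone-responsive gene of lipogenic tissues; ENSMUSG00000035686, chr7:97412938-97417730, minus strand) was at 181, 229 and 314 FPKM in the NC libraries and at 32.5, 49.8 and 85.8 in the APAP libraries. In the AMSC group it was at 189 FPKM in replicate 2, 46.6 in replicate 3 and 240.4 in replicate 4. AMSC replicates 2 and 4 were inside the NC range and replicate 3 was inside the APAP range. Thrsp fell in APAP against NC (log2 fold change -2.16, SE 0.35, adjusted p = 0.0044). In AMSC against NC its log2 fold change was -0.87 (95% interval -2.12 to 0.39, adjusted p = 0.281), and in AMSC against APAP it was 1.29 (95% interval -0.11 to 2.70, adjusted p = 0.275). Without AMSC replicate 3 these 2 values became -0.14 (adjusted p = 0.692) and 2.02 (adjusted p = 0.0767), so that library decided how near the AMSC mean came to NC. The same AMSC library was lowest in its group for Srebf1 and Fasn, and highest for Elovl6 and Acaca.

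Acly (ENSMUSG00000020917, chr11:100476353-100528000, minus strand) was at 37.6, 36.2 and 24.0 FPKM in the NC libraries, 27.8, 35.8 and 31.0 in the APAP libraries and 13.0, 13.3 and 16.8 in the AMSC libraries. NC and APAP overlapped, and all AMSC libraries lay below both. The log2 fold change was -1.09 (SE 0.15, adjusted p = 0.0124) in AMSC against APAP and -1.11 (SE 0.18, adjusted p = 0.00369) in AMSC against NC, whereas APAP against NC gave -0.03 (95% interval -0.47 to 0.42, adjusted p = 0.933). The call against APAP was lost without AMSC replicate 2 (adjusted p = 0.0568), without AMSC replicate 3 (adjusted p = 0.0606) and without APAP replicate 2, where the log2 fold change was -0.99. The call against NC was lost without NC replicate 1, where the value of -0.999 was just short of the minimum.

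Acaca, the cytosolic acetyl-CoA carboxylase (ENSMUSG00000020532, chr11:84129672-84401651, plus strand), was at 3.78, 3.35 and 2.62 FPKM in the NC libraries, 2.09, 1.84 and 2.06 in the APAP libraries and 1.55, 2.16 and 1.77 in the AMSC libraries. Every NC library lay above the other 6. Acaca was at 61.4% of NC in APAP and 56.1% in AMSC. The log2 fold changes of -0.50 (SE 0.14, adjusted p = 0.0323) and -0.59 (SE 0.14, adjusted p = 0.0188) passed on p but not on size, and AMSC against APAP gave -0.09 (95% interval -0.39 to 0.21, adjusted p = 0.746). On this scale with a pseudocount of 1, changes of low genes such as Acaca are understated. Acaca overlaps Gm11437 on the other strand (0.203 to 2.999 FPKM), and since it is not stated whether strand was counted, its values are uncertain to that extent.

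Fasn (ENSMUSG00000025153, chr11:120805846-120824547, minus strand), the enzyme that makes palmitate, was at 38.2, 48.8 and 28.5 FPKM in the NC libraries, 17.3, 11.1 and 13.6 in the APAP libraries and 7.89, 6.20 and 10.8 in the AMSC libraries. The 3 groups did not overlap. The log2 fold change was -1.39 (SE 0.23, adjusted p = 0.00462) in APAP against NC and -2.09 (SE 0.23, adjusted p = 0.000574) in AMSC against NC. AMSC against APAP gave -0.70 (95% interval -1.21 to -0.19, adjusted p = 0.129), which was not called.

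Elovl6, which lengthens palmitate to stearate (ENSMUSG00000041220, chr3:129532355-129638495, plus strand), was at 12.9, 11.8 and 16.2 FPKM in the NC libraries, 2.93, 3.22 and 2.82 in the APAP libraries and 1.41, 2.46 and 1.30 in the AMSC libraries. The groups did not overlap here either. Its log2 fold change against NC was -1.87 in APAP (SE 0.14, adjusted p = 0.000184) and -2.44 in AMSC (SE 0.18, adjusted p = 8.64e-05), and AMSC against APAP gave -0.57 (95% interval -0.98 to -0.17, adjusted p = 0.12). Gm35986 on the other strand, at 0.196 to 4.13 FPKM, overlaps Elovl6. Its highest value exceeds every APAP and AMSC value of Elovl6, but the library that held this value was not identified. The Elovl6 values are therefore uncertain in the way described for Acaca.

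Scd1, the stearoyl-CoA desaturase (ENSMUSG00000037071, chr19:44394451-44407709, minus strand), had the highest level of the 10 genes per length. It was at 388, 615 and 523 FPKM in the NC libraries, 727, 337 and 628 in the APAP libraries and 499, 382 and 379 in the AMSC libraries. The groups overlapped, and the APAP group held both the lowest and the highest of the 9 values. The log2 fold change was 0.10 (95% interval -0.60 to 0.80, adjusted p = 0.83) in APAP against NC, -0.26 (95% interval -0.70 to 0.18, adjusted p = 0.351) in AMSC against NC and -0.36 (95% interval -1.02 to 0.30, adjusted p = 0.526) in AMSC against APAP. Its paralogs Scd2, Scd3 and Scd4 could share reads with it, and how such reads were counted is not stated.

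Me1, the cytosolic malic enzyme that supplies NADPH (ENSMUSG00000032418, chr9:86581371-86695953, minus strand), was at 25.5, 24.0 and 38.2 FPKM in the NC libraries, 33.9, 21.5 and 30.1 in the APAP libraries and 32.6, 38.7 and 41.1 in the AMSC libraries. All groups overlapped. The log2 fold change was -0.03 (95% interval -0.56 to 0.49, adjusted p = 0.932) in APAP against NC, 0.37 (95% interval -0.05 to 0.79, adjusted p = 0.177) in AMSC against NC and 0.40 (95% interval -0.03 to 0.83, adjusted p = 0.273) in AMSC against APAP.

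Pnpla3, a lipid droplet protein whose gene SREBP1 is known to drive in mouse liver (ENSMUSG00000041653, chr15:84167837-84187236, plus strand), was near the detection limit. It had 4, 1 and 1 reads in the NC libraries, 5, 0 and 1 in the APAP libraries and 1, 0 and 0 in the AMSC libraries. It was not tested, and a difference was not detectable at this depth.

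As a description over the 9 libraries, which fall into the 3 groups, the correlation of log2(FPKM + 1) with Srebf1 was 0.94 for Fasn, 0.90 for Mid1ip1, 0.87 for Elovl6, 0.75 for Acaca, 0.66 for Acly and 0.63 for Thrsp. It was 0.16 for Scd1 and -0.37 for Me1. Outside the lists examined, the 5 genes most like Srebf1 were Tk1 (0.97), Acy3 (0.96), Cars2 (0.96), Gpr180 (0.96) and Rnf170 (0.96). None of these 5 was called in any of the 3 comparisons by limma.

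Genes that hold or carry SREBPs were described beside the members. Insig2, a retention protein known in mouse liver for a transcript that insulin lowers, was at 22.8, 16.1 and 27.7 FPKM in NC, 123.7, 90.6 and 91.1 in APAP and 166, 176 and 192 in AMSC. It rose in both comparisons with NC, opposite to Srebf1, by 2.16 in APAP (SE 0.22, adjusted p = 0.000635) and by 2.98 in AMSC (SE 0.18, adjusted p = 3.07e-05) on the log2 scale. Insig1, the other retention protein and itself an SREBP target, was at 129.7, 128.3 and 52.4 FPKM in NC, 80.1, 118.1 and 114.6 in APAP and 47.7, 28.7 and 51.8 in AMSC. Its AMSC libraries lay below all others, and the log2 fold change against APAP was -1.29 (adjusted p = 0.0373) and that against NC -1.19 (adjusted p = 0.0448). The call against APAP was lost without APAP replicate 2 (adjusted p = 0.0782), APAP replicate 3 (adjusted p = 0.11) or any AMSC library (adjusted p of 0.0793 to 0.0918). The call against NC was lost without NC replicate 1 (adjusted p = 0.137), NC replicate 2 (adjusted p = 0.133) or any AMSC library (adjusted p of 0.0706 to 0.116). Both were also lost with all genes above 0 tested (adjusted p = 0.179 and 0.22), and that against APAP with all 9 libraries in a single fit (adjusted p = 0.0589). Of the 8 tested genes of SREBP processing, 1 rose in APAP against NC, and in AMSC against NC 1 rose and 1 fell. For this list and those below, the shares called over all genes tested serve as scale. They were 2.8% lower and 5.09% higher in APAP against NC, and 2.09% and 3.92% in AMSC against NC. In AMSC against APAP they were 1.22% and 0.742%.

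Among 15 tested genes of LXR, insulin and carbohydrate control, Irs2, an insulin receptor substrate that fasting is known to raise, was the only one called in either comparison with NC. It was at 0.910, 0.722 and 0.882 FPKM in NC, 5.19, 4.11 and 3.61 in APAP and 6.07, 9.08 and 6.05 in AMSC. The log2 fold change was 1.52 (adjusted p = 0.000455) in APAP and 2.11 (adjusted p = 8.28e-05) in AMSC, both against NC. Nr1h3, which encodes LXRα, a factor known to drive Srebf1, was at 45.7, 48.2 and 47.5 FPKM in NC, 32.5, 24.1 and 32.7 in APAP and 27.8, 29.9 and 30.6 in AMSC. Its log2 fold changes against NC of -0.66 (adjusted p = 0.0149) and -0.66 (adjusted p = 0.00202) passed on p but not on size. Mlxipl, encoding ChREBP, gave -0.05 (adjusted p = 0.776) and -0.21 (adjusted p = 0.257). In AMSC against APAP, Nr0b2 (SHP) fell (-1.77, adjusted p = 0.00213).

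**Figure D3:**
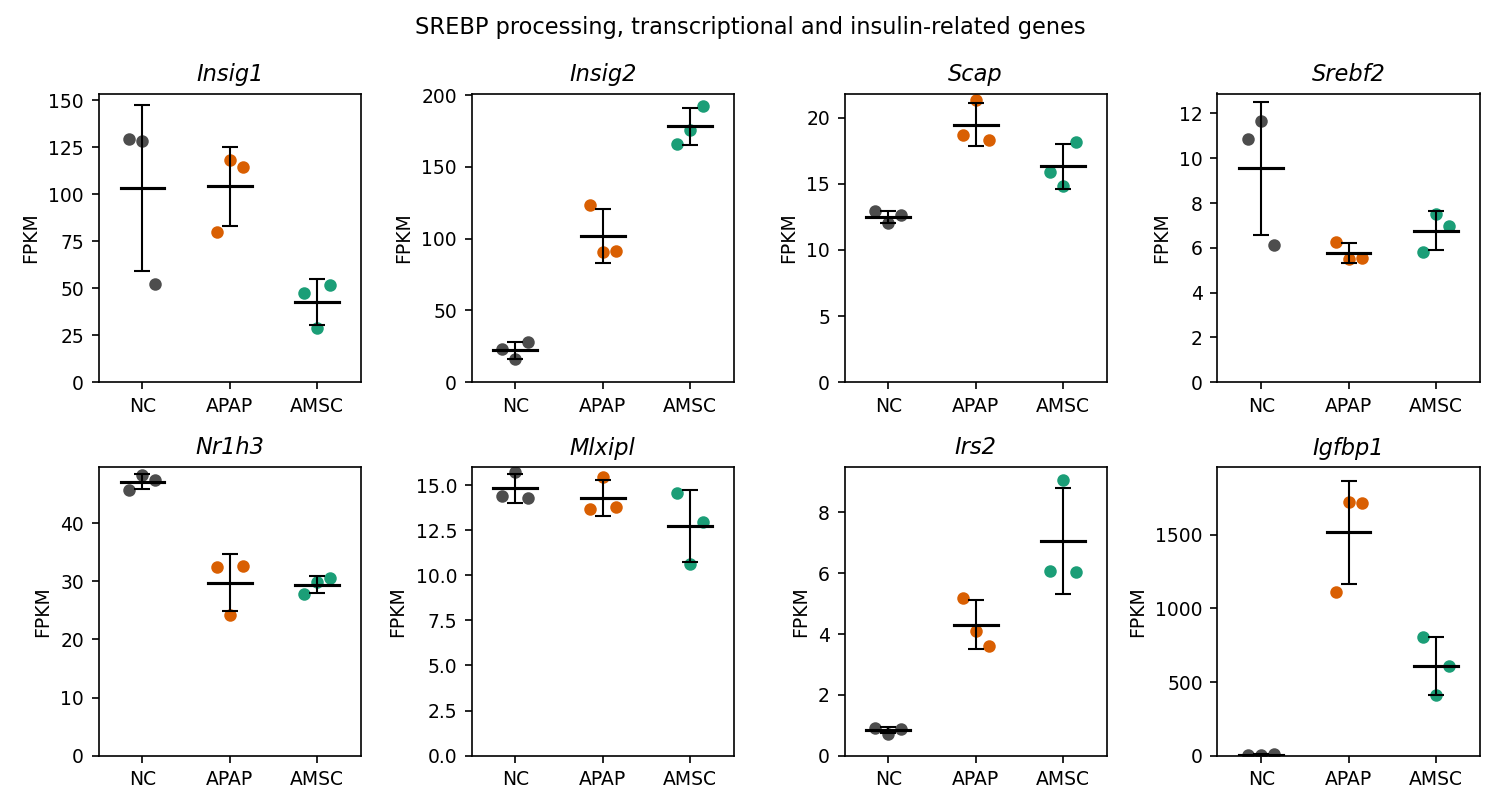
FPKM of 8 genes of SREBP processing and of LXR, insulin and fasting control in each library (points), with the group mean (bar) and SD (error bar) and a linear axis from 0 for each gene. Insig2, Irs2 and Igfbp1 were higher in all APAP and AMSC libraries than in all NC libraries, while the Insig1 values of AMSC lay below those of APAP.

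In the lists nearest to the members in metabolism, most genes were not called. Of 13 tested genes of acetyl-CoA, malonyl-CoA and NADPH supply, Aacs, which makes acetoacetyl-CoA from ketone bodies, fell in APAP (log2 fold change -1.67, adjusted p = 0.00202) and in AMSC (-1.13, adjusted p = 0.00462) against NC. The call in AMSC was lost without NC replicate 2, at -0.98. Of 14 genes of desaturation and elongation, Elovl5, an elongase of polyunsaturated fatty acids, rose in APAP against NC (1.26, adjusted p = 0.00341), the direction opposite to that of Elovl6. Among 14 genes of triglyceride assembly and export, 3 rose in each comparison with NC. These were Gpat3, which adds the first acyl chain (2.63 in APAP, adjusted p = 0.000526, and 1.90 in AMSC, adjusted p = 0.000358), Lpin1 (1.22, adjusted p = 0.00495, and 2.15, adjusted p = 0.000308) and Lpin2 (1.96, adjusted p = 0.00191, and 2.17, adjusted p = 0.000172), which make diacylglycerol. Agpat1 fell in APAP against NC (-1.02, adjusted p = 0.000998), a call lost without NC replicate 1, NC replicate 2 or APAP replicate 2 at -0.997 to -0.987.

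Of 9 tested lipases and PNPLA family genes, Pnpla2, which encodes the triglyceride lipase ATGL, rose in AMSC against NC (1.09, adjusted p = 0.000228) and G0s2, an inhibitor of that lipase, fell (-1.21, adjusted p = 0.0078). The G0s2 call was lost without NC replicate 2, at -0.91, with all 9 libraries in a single fit (adjusted p = 0.125) and with all genes above 0 tested (adjusted p = 0.0757). Of 12 ChREBP targets and glycolytic genes, Pklr (liver pyruvate kinase) and Pfkfb1 fell in both comparisons with NC and Txnip rose in both. Pklr changed by -1.24 (adjusted p = 0.0021) in APAP and -1.75 (adjusted p = 0.000574) in AMSC, Pfkfb1 by -1.72 (adjusted p = 0.00126) and -1.24 (adjusted p = 0.00106), and Txnip by 1.95 (adjusted p = 0.00366) and 1.91 (adjusted p = 0.00709). G6pc, the last enzyme of glucose release, rose in APAP against NC (1.89, adjusted p = 0.00694) and fell in AMSC against APAP (-1.86, adjusted p = 0.00473). When all genes above 0 were tested, both G6pc calls (adjusted p = 0.0612 and 0.0723) and those of Txnip (0.08) and Aacs (0.0529) in AMSC against NC were lost.

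Cholesterol synthesis, the branch driven by SREBP2, was lower in part. Of 20 tested genes, 8 fell in APAP against NC, among them Idi1 (-1.83, adjusted p = 0.0122), Mvd (-1.62, adjusted p = 0.0335), Mvk (-1.21, adjusted p = 0.0147), Msmo1 (-1.14, adjusted p = 0.031) and Stard4 (-1.002, adjusted p = 0.011). In AMSC against NC 11 fell, among them Mvd (-2.03, adjusted p = 0.00352), Idi1 (-1.72, adjusted p = 0.00676), Stard4 (-1.47, adjusted p = 0.00173), Sqle (-1.33, adjusted p = 0.0282) and Sc5d (-1.30, adjusted p = 0.00196). Over all genes tested, 2.8% were called lower in APAP against NC and 2.09% in AMSC against NC. The median of the 20 genes was -0.98 in APAP against NC and -1.09 in AMSC against NC. NC replicate 3 was lowest of its group for Insig1 and for Idi1 (7.61 FPKM against 19.9 and 19.4). Without it, 11 genes in APAP and 15 in AMSC fell against NC. In APAP against NC the count was 2 without NC replicate 1, 1 without NC replicate 2, 4 without APAP replicate 1 and 2 without APAP replicate 2, and in AMSC against NC it was 6 without NC replicate 1. Of the genes named in APAP against NC, Mvd (adjusted p of 0.0752 to 0.115), Msmo1 (0.0522 to 0.103) and Stard4 (-0.98 to -0.88, short of the minimum) lost their call when any 1 of these 4 libraries was left out, and Mvk without NC replicate 1, NC replicate 2 or APAP replicate 2 (adjusted p of 0.0545 to 0.0577). In AMSC against NC, Sqle lost it without NC replicate 1 or 2 or AMSC replicate 2 or 4 (adjusted p of 0.0682 to 0.0939). With the replicate number as a block, Mvd (adjusted p = 0.0737) and Msmo1 (adjusted p = 0.0659) were not called in APAP against NC, nor was Sqle in AMSC against NC (-1.07, adjusted p = 0.0599), which a single fit of all 9 libraries did not call either (adjusted p = 0.0634). With all genes above 0 tested, the calls of Idi1 (adjusted p = 0.0883), Mvd (0.163), Mvk (0.0911), Msmo1 (0.146) and Stard4 (0.0667) in APAP against NC and of Idi1 (0.0762), Mvd (0.0543) and Sqle (0.171) in AMSC against NC were lost.

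Genes that fasting is known to raise were in part higher against NC. Of 13 tested, 6 rose in APAP, namely Igfbp1 (7.98, adjusted p = 4.46e-05), Pdk4 (4.96, adjusted p = 2.16e-05), Fgf21 (3.87, adjusted p = 3.17e-05), Angptl4 (3.41, adjusted p = 0.000185), Ppargc1a (1.39, adjusted p = 0.00252) and Pck1 (1.23, adjusted p = 0.0188). The Pck1 call was lost without NC replicate 2, at 0.90, without APAP replicate 2 (adjusted p = 0.0622), after quantile normalization, at 0.98, and with all genes above 0 tested (adjusted p = 0.106). In AMSC 6 rose against NC, namely Igfbp1 (6.64, adjusted p = 3.57e-05), Fgf21 (4.18, adjusted p = 6.71e-05), Pdk4 (3.11, adjusted p = 5.59e-05), Angptl4 (2.77, adjusted p = 1.42e-05), Cyp4a14 (1.65, adjusted p = 0.00855) and Tat (1.56, adjusted p = 0.00352). Igfbp1 (-1.34, adjusted p = 0.0447) and Pdk4 (-1.85, adjusted p = 0.022) fell in AMSC against APAP. The Igfbp1 call was lost without APAP replicate 2 or 3 or any AMSC library (adjusted p of 0.0557 to 0.13), and that of Pdk4 without AMSC replicate 2 (adjusted p = 0.0568) or 3 (adjusted p = 0.0748). With all genes above 0 tested, the calls of Igfbp1 (adjusted p = 0.204) and Pdk4 (0.142) in AMSC against APAP and of Cyp4a14 (0.0868) and Tat (0.0518) in AMSC against NC were lost, and with all 9 libraries in a single fit that of Igfbp1 in AMSC against APAP (0.0806). The overnight fast stated in the methods may or may not cover NC, so the feeding state of NC is not known for certain.

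**Figure D4:**
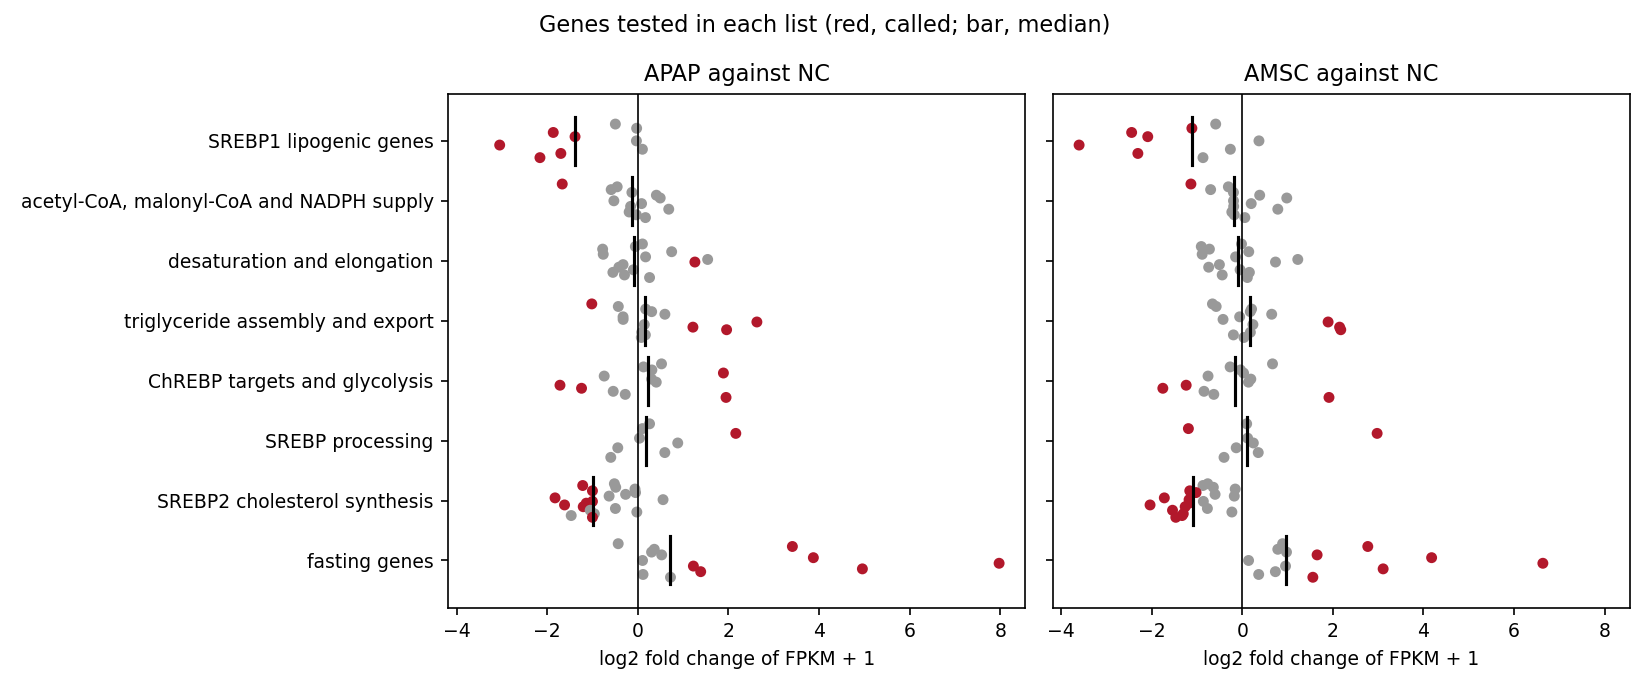
Log2 fold change of FPKM + 1 of each gene tested (points; red, called) in 8 gene lists against NC, for APAP and for AMSC, with the list median (bar). The lipogenic genes had medians of -1.39 and -1.11, and the cholesterol synthesis genes of -0.98 and -1.09.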

How the data were processed

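RNA-seq of 9 mouse livers was analysed, in 3 groups of 3 taken from the sample labels. The authors deposited FPKM values per gene, with gene lengths and coordinates. The processing notes name GRCm38 (mm10); the aligner and counter are not given in the sources used here. FPKM times length was a whole multiple of 1 read (within 0.1 read) for 100% of values, and the libraries had been scaled in proportion to size factors of the median-of-ratios kind. A read on a 1 kilobase gene was worth 0.0578 to 0.0807 FPKM. Of 54409 gene identifiers shared with GENCODE vM21, 53499 (98.3%) had the same start and end.

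The 9699 genes averaging 1 FPKM or more over the libraries were tested as log2(FPKM + 1) with limma 3.58.1 (lmFit, eBayes with trend) in R 4.3.3, on the 2 groups compared, with Benjamini-Hochberg adjustment over all genes tested. The authors' thresholds were kept (adjusted p at most 0.05, absolute log2 fold change at least 1). The method was tested on simulated data. Deviations from the group means correlated between same-numbered APAP and NC libraries (r = 0.213, 0.160 and 0.378). Between differently numbered APAP and NC libraries r was lower, from -0.342 to 0.087. In the AMSC comparisons, differently numbered libraries reached 0.409 (AMSC replicate 2 with APAP replicate 3) and 0.382 (AMSC replicate 2 with NC replicate 3). These values cannot settle whether libraries were paired or shared another factor, and the study states no pairing. The replicate numbers are those of the sample descriptions, and the title of NC replicate 3 numbers it 1 of another date. The methods call the 3 libraries of a group biological replicates.

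The members and the lists (pathways and cell type markers) were chosen with earlier results of these data known. Named were the members, up to 6 called genes per list and comparison, and the 5 genes outside the lists most correlated with Srebf1; Nr1h3, Mlxipl and the 8 genes plotted by library were added after their values were seen. Some genes that this rule names are not reported here. Promoters came from a RefSeq table. Alternatives were the pseudocount (0.1), the low-value filter (all genes above 0, or a mean of at least 5 FPKM), quantile and median-of-ratios scaling, all 9 libraries in a single fit, a replicate block, no trend, voom on recovered reads, no minimum fold change and leaving out each library; leave-out counts within the lists were added after seeing the data. Figures were drawn with Python 3.11.15 and matplotlib 3.10.9.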

Additional observations from a re-analysis of the deposited data

How the results depend on the processing

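The members called numbered 5 in APAP against NC under every alternative with the fold minimum, leave-outs included (6 without it), and 4 to 5 when a library was left out of AMSC against NC. In AMSC against APAP the count of 1 became 0 in limma with all genes above 0 tested (Acly adjusted p = 0.0922, 3 members at an unadjusted p under 0.05, against 1 member called by voom), and ranged from 0 to 1 when a library was left out. Of 402 member values under alternatives, 387 kept their direction and side of the threshold, 9 turned direction, 5 lost and 1 gained a call. Of the 387, 27 came from median-of-ratios rescaling, which could hardly change anything because the deposited values already held such scaling. The single fit, the fit without the trend and the low-value filters left each log2 fold change as it was. They could move a call but could not turn a direction. The turned values were small. In APAP against NC, Scd1 was -0.30 after quantile normalization and -0.12 to 0.43 when a library was left out, Acly -0.23 to 0.087 and Me1 -0.17 to 0.17; the cause was not tested.

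With the replicate block, 5, 1 and 6 members were called in APAP against NC, AMSC against APAP and AMSC against NC. The added member was Thrsp (log2 fold change -1.50, adjusted p = 0.0375). In the AMSC comparisons the block rests on replicates 2 and 3 alone. Same-numbered AMSC libraries correlated at -0.104 and -0.293 with APAP and at -0.199 and -0.309 with NC, and no pairing of them is stated.

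Over all genes, 190 were called in AMSC against APAP, 21 with all genes above 0, 102 with a mean of at least 5 FPKM, 335 with the block, 296 by voom and 90 to 229 when a library was left out. APAP against NC gave 766, 478 with a mean of at least 5 FPKM and 1197 by voom. AMSC against NC gave 583, 915 with a pseudocount of 0.1 and 968 by voom. Among the members, Pnpla3 alone was too low to be tested, and how depth affected the others was not tested.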
